A study of Rattus norvegicus with 4 samples.

Results

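Haem breakdown, ferritin and iron transport are represented here by 10 genes, taken as the rows of the expression table with the symbols Hmox1, Hmox2, Blvra, Blvrb, Fth1, Ftl1, Tfrc, Slc40a1, Ncoa4 and Slc11a2, out of 18699 rows in all. Each symbol matched 1 row. The genes were measured in wild-type neonatal rat ventricular myocytes, which are heart muscle cells taken from Sprague Dawley pups aged 1 to 3 days. The first group was treated with 1 µM carfilzomib, an irreversible proteasome inhibitor used against multiple myeloma, for 24 h (2 libraries), and the second was given vehicle (2 libraries). All cells grew in medium with 15% fetal bovine serum and 0.1 mM bromodeoxyuridine, which holds back dividing cells that are not cardiomyocytes. The study asked how the drug damages the heart, and carfilzomib was compared with vehicle.

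Haem oxygenases open the haem ring and release iron, carbon monoxide and biliverdin, and biliverdin reductases turn biliverdin into bilirubin. Free iron is stored in ferritin, a shell of heavy and light chains. Iron enters cells bound to transferrin through the transferrin receptor, or through the divalent metal transporter, and leaves them through ferroportin. The heart uses much iron for its respiratory chain and for myoglobin, and excess free iron there drives oxidative damage. Iron-regulatory proteins bind elements in the messenger RNAs of ferritin, of the transferrin receptor and of some transporters, so that part of this control acts on translation, which RNA levels do not show.

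The libraries were of even depth, between 18655450 and 18884333 estimated counts, and of 18699 genes 14519 passed the filter on low counts, among them all 10 genes described here. The markers of cardiomyocytes were all detected, and their summed level was 10097 and 9596.5 CPM in the carfilzomib libraries, against 32374 and 32490 CPM in the vehicle libraries, with 10 of 11 markers lower. CPM are counts scaled to library size and normalised by TMM factors. Single markers changed unevenly, with log2 fold changes from -3.79 for Myh6 to 0.00 for Nppa. In bulk samples, fewer cells of a type and less RNA per cell cannot be told apart. Fibroblast markers were also abundant, at 15574 and 14846 CPM with carfilzomib against 27806 and 28379 CPM with vehicle, and 10 of 10 fell. Whether libraries of 1 group come from separate cultures or animals is not in the labels, so the p-values reflect the spread of these libraries alone, and that spread may be technical.

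With carfilzomib 5 of the 10 genes rose, namely Blvrb, Ftl1, Fth1, Ncoa4 and Slc11a2, and the other 5, Hmox1, Hmox2, Blvra, Tfrc and Slc40a1, did not pass the test. The test was edgeR's quasi-likelihood F test with Benjamini-Hochberg adjustment over all genes tested, at an adjusted p of 0.05. By the same rule 60.7% of all tested genes were called, 30.6% as higher and 30.1% as lower, so a share of 5 in 10 called is no larger than the background. None of the 10 fell, with 0 lower calls by edgeR, 0 at an unadjusted p under 0.05, and 0 by DESeq2 and by limma-voom. The median log2 fold change of the 10 genes was 0.13, and that of all tested genes was 0.00. The groups did not overlap in 6 of the 10 genes, against 79.9% of all tested genes.

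**Figure D1:**
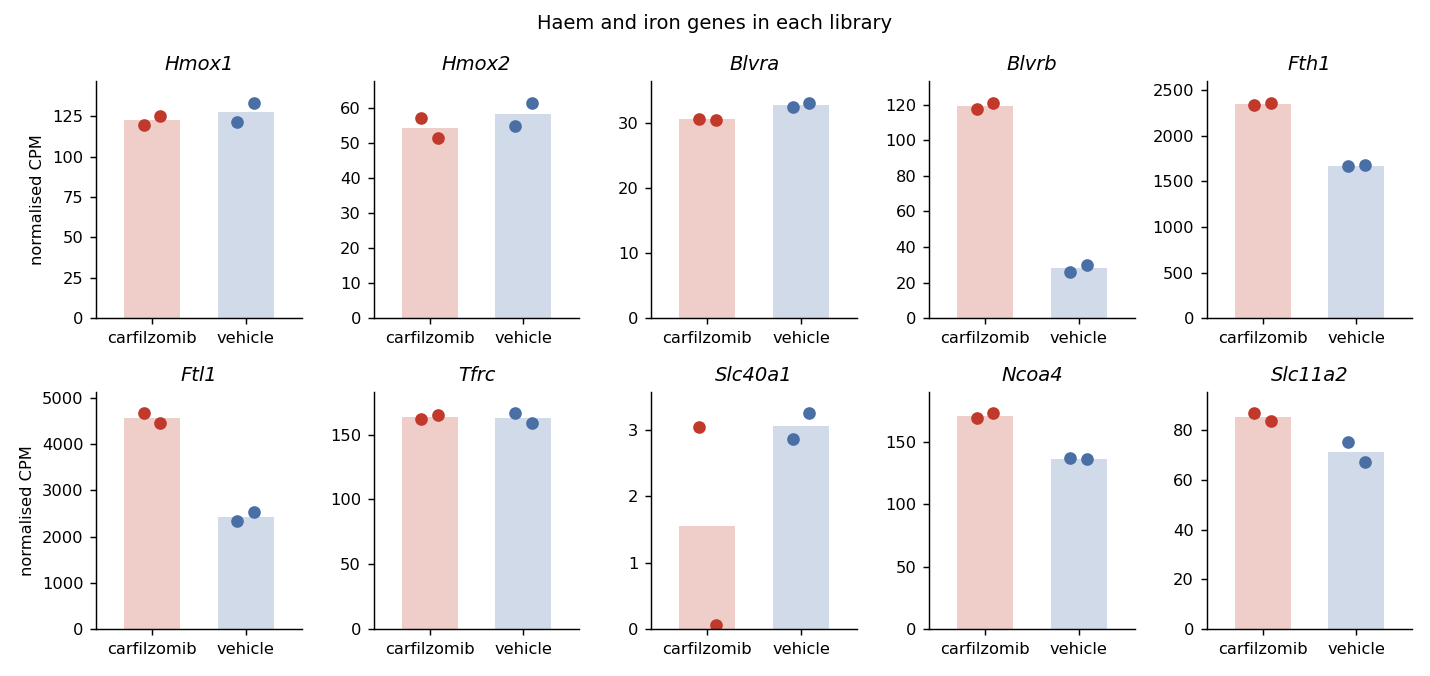
Normalised CPM (y axis, from 0, a scale of its own for each gene) of the 10 haem and iron genes in the carfilzomib and vehicle libraries; points are single libraries and bars are means of 2. Blvrb and both ferritin chains stand clearly higher with carfilzomib, Hmox1, Hmox2 and Tfrc overlap, and Slc40a1 is near 0 in 1 carfilzomib library.

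Haem oxygenase transcripts were at similar levels in both groups. Hmox1 (gene ID 24451), the inducible haem oxygenase and a widely used readout of the oxidative stress response, had 119.6 and 125 CPM in the carfilzomib libraries, against 121 and 133 CPM in the vehicle libraries. The carfilzomib values lay within or just below the range of the vehicle values. On the log2 scale the change was -0.06, with a 95% interval from -0.17 to 0.06 and an edgeR adjusted p of 0.36. Hmox2 (gene ID 79239), the constitutive haem oxygenase, had 57.1 and 51.5 CPM with carfilzomib against 54.9 and 61.5 CPM with vehicle, and the groups overlapped. The log2 fold change was -0.10, with an interval from -0.26 to 0.06 and an edgeR adjusted p of 0.253. Scaled by transcript length, Hmox1 stood above Hmox2 in every library. The ratio of their FPKM, the authors' values scaled by gene length and library size, was 2.25 and 2.63 with carfilzomib and 2.39 and 2.36 with vehicle.

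Of the biliverdin reductases, Blvrb rose and Blvra did not pass. Blvrb (gene ID 292737) encodes biliverdin reductase B, which also reduces flavins and, in humans, acts on the beta isomer of biliverdin found in the fetus. It had 118 and 121 CPM in the carfilzomib libraries, against 26.1 and 30.1 CPM in the vehicle libraries. Both carfilzomib libraries lay far above both vehicle libraries, a rise of 4.25-fold. On the log2 scale it rose by 2.09 ± 0.07 (SE), with a 95% interval from 1.94 to 2.24 and an edgeR adjusted p of 2.18e-12, and 100 of the 14519 tested genes had a higher one. By FPKM it ranked 638 and 624 among 18699 genes with carfilzomib, against 2944 and 2608 with vehicle. Blvra (gene ID 116599), biliverdin reductase A, which acts on the alpha isomer made by the haem oxygenases, had 30.7 and 30.6 CPM with carfilzomib against 32.5 and 33.2 CPM with vehicle. The carfilzomib values were both below the vehicle values, but the difference did not pass, with a log2 fold change of -0.10, an interval from -0.24 to 0.04 and an edgeR adjusted p of 0.195.

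Set against each other within a library, the FPKM ratio of Blvra to Blvrb was 0.187 and 0.183 with carfilzomib, against 0.900 and 0.802 with vehicle. The reductases, scaled by length, were at similar levels in vehicle cells and several-fold apart after carfilzomib. The difference in the log2 ratio was -2.20, and an exact two-sided permutation test gave p = 0.333, the smallest p that 2 against 2 libraries allow. The 3 genes outside the 10 whose log2 CPM followed Blvrb most closely over the 4 libraries, each taken relative to its vehicle mean, were Mapre3, Tmem179 and S100a13. Their Euclidean distances from Blvrb were 0.096, 0.11 and 0.16 on the log2 scale, among 10000 genes with at least 10 CPM on average. Mapre3, a microtubule end-binding protein, had 169 and 168 CPM with carfilzomib and 39.1 and 42.0 CPM with vehicle.

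Biliverdin reductases A and B both reduce biliverdin, but act on different isomers of it. The sequences upstream of the start sites of both genes are shown because the genes differ in response. They are the 250 bases before the start site as RefSeq gives it on the build GRCr8, from 5′ to 3′ on the gene's strand. Capitals mark matches to TGACNNNGC on either strand, the core of the antioxidant response element that NRF2 and BACH1 bind with small MAF proteins. The Blvrb sequence lies at chr1:91866008-91866257 on the plus strand and the Blvra sequence at chr3:134802660-134802909 on the plus strand.
Blvrb: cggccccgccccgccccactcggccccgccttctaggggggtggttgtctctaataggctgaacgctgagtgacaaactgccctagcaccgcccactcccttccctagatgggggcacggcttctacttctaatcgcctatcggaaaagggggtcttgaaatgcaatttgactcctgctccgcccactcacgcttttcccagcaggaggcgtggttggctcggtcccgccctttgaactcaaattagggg
Blvra: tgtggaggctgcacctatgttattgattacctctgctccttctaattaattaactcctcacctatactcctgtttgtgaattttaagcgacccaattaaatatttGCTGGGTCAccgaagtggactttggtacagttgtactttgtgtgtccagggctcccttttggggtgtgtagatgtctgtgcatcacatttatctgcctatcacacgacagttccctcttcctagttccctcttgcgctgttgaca
The window of Blvrb held no match, and that of Blvra held GCTGGGTCA, with its first base 145 bases before the start site. A match was held by 10.1% of the 33469 such windows that RefSeq gives. The table had windows for 7 of the 10 genes, 9 windows in all, and 3 of these held a match, in Hmox2, Blvra and Ncoa4. Hmox1, Fth1 and Ftl1 had no window, so they were not searched. A match describes letters and not binding.

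Both ferritin chains rose, the light chain more than the heavy chain. Fth1 (gene ID 25319), the heavy chain with the ferroxidase site, had 2341 and 2364 CPM in the carfilzomib libraries, against 1667 and 1680.4 CPM in the vehicle libraries. The libraries of a group differed by far less than the groups did, and Fth1 was 1.41-fold higher with carfilzomib. The rise was 0.49 ± 0.04 (SE) on the log2 scale, with an interval from 0.41 to 0.57 and an edgeR adjusted p of 3.46e-08. Ftl1 (gene ID 29292), the light chain that helps form the iron core, had 4669 and 4461 CPM with carfilzomib against 2339 and 2528 CPM with vehicle. It was 1.88-fold higher, or by 0.91 ± 0.05 (SE) on the log2 scale, with an interval from 0.81 to 1.00 and an edgeR adjusted p of 2.44e-10. The intervals of the chains do not overlap.

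Ferritin transcripts ranked among the most abundant in each library. By FPKM, Ftl1 ranked 2 in both carfilzomib libraries, against 7 and 6 in the vehicle libraries, and Fth1 ranked 5 in both carfilzomib libraries, against 13 in both vehicle libraries. Together the chains made up 0.708% (exact 95% binomial interval 0.704 to 0.712) and 0.691% (0.687 to 0.694) of all counts with carfilzomib, against 0.397% (0.394 to 0.399) and 0.415% (0.412 to 0.418) with vehicle. These intervals cover counting error only. The FPKM ratio of Fth1 to Ftl1 was 0.556 and 0.588 with carfilzomib, against 0.790 and 0.737 with vehicle. Every carfilzomib library was below every vehicle library, with a log2 difference of -0.42 and an exact two-sided permutation p = 0.333, the smallest possible here. Both ferritin genes carry decimals in their estimated counts, as if part of their reads had been shared out, and mammalian genomes hold many processed copies of them, so their levels are less certain than those of genes with whole counts.

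**Figure D2:**
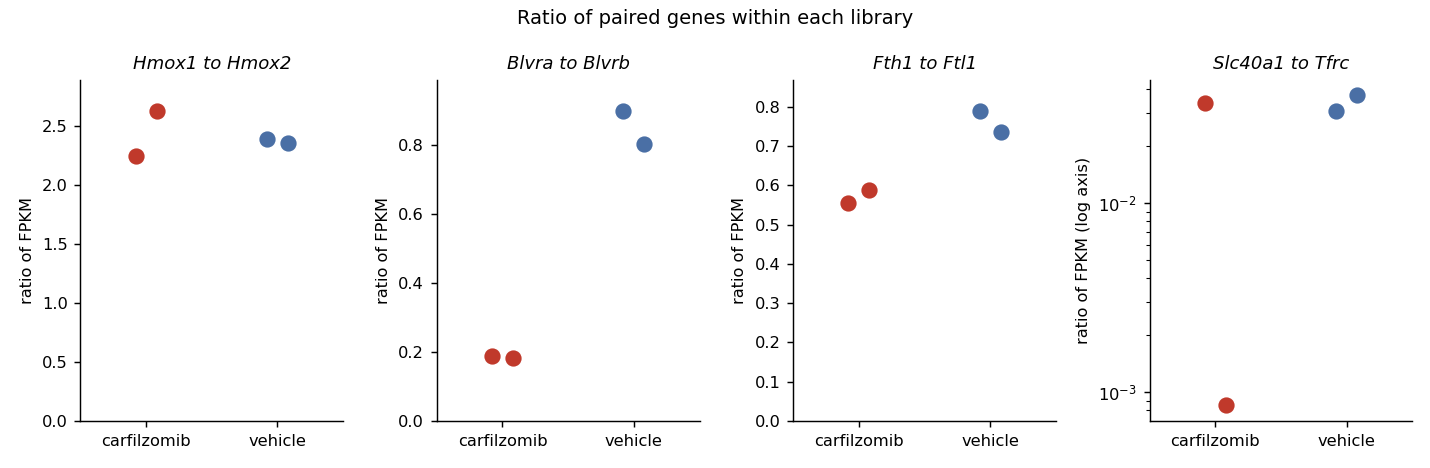
FPKM ratio of 4 gene pairs within each library (points), for carfilzomib and vehicle; the first 3 panels start at 0 and the panel of Slc40a1 to Tfrc has a log axis. The ratio of Blvra to Blvrb is 0.187 and 0.183 with carfilzomib and 0.900 and 0.802 with vehicle, that of Fth1 to Ftl1 is lower with carfilzomib, and that of Hmox1 to Hmox2 overlaps.

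Ncoa4 (gene ID 619385), the receptor that carries ferritin to autophagosomes so that its iron is released in lysosomes, rose with carfilzomib. It had 169 and 173 CPM in the carfilzomib libraries, against 137 and 136 CPM in the vehicle libraries, 1.25-fold higher. The log2 value of this rise was 0.32 ± 0.04 (SE), with an interval from 0.23 to 0.42 and an edgeR adjusted p of 1.10e-05. Its upstream window, at chr16:7401541-7401790 on the plus strand of GRCr8, is shown as the window of a gene that rose and holds a match to TGACNNNGC, again in capitals, with its first base 52 bases before the start site.
Ncoa4: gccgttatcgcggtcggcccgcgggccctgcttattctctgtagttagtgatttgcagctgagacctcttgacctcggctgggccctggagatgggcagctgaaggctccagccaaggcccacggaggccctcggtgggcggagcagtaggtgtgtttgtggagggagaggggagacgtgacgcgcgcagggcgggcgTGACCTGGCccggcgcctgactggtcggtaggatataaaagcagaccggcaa
Blvrb rose more with no match in its window, and Blvra did not pass with a match in its own. The windows cover 250 bases only, and a link between matches and changes was not tested.

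Of the iron importers, Slc11a2 rose and Tfrc did not pass, and the difference between their changes was not tested. Tfrc (gene ID 64678), the receptor that brings transferrin-bound iron into the cell, had 162 and 166 CPM with carfilzomib against 167 and 159 CPM with vehicle. The values overlapped, and the log2 fold change was 0.01, with an interval from -0.09 to 0.10 and an edgeR adjusted p of 0.88. Slc11a2 (gene ID 25715), the divalent metal transporter DMT1 that moves iron across endosomal and plasma membranes, had 86.9 and 83.6 CPM with carfilzomib against 75.4 and 67.4 CPM with vehicle. Both carfilzomib libraries were above both vehicle libraries, by 1.19-fold, the smallest of the 5 rises. It rose by 0.26 ± 0.06 (SE) on the log2 scale, with an interval from 0.12 to 0.39 and an edgeR adjusted p of 0.00253, and its counts carry decimals. The change was 0.34 without vehicle replicate 1 and 0.18 without vehicle replicate 2, and the call held in both cases.

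Slc40a1 (gene ID 170840), ferroportin, the iron exporter, was low and differed between the carfilzomib libraries. It had 57.9 and 1.29 estimated counts in the carfilzomib libraries, against 52.6 and 60.4 in the vehicle libraries, or 3.04 and 0.053 CPM against 2.85 and 3.25 CPM. Of the carfilzomib libraries, replicate 1 lay within the vehicle range and replicate 2 was almost at 0. The fitted log2 fold change was -0.97, with an interval from -6.93 to 4.98 and an edgeR adjusted p of 0.643. Without carfilzomib replicate 2 the log2 fold change was -0.0013 with an edgeR adjusted p of 0.998, and without carfilzomib replicate 1 it was -5.68 with an adjusted p of 8.18e-07. Its counts carry decimals. In the RefSeq gene table, on a build other than that of the counts, Slc40a1 overlaps Asnsd1. Asnsd1 had whole counts, 2138 and 2089 with carfilzomib and 1166 and 1153 with vehicle. Whether reads of Slc40a1 were shared out with another gene was not tested. The FPKM ratio of Slc40a1 to Tfrc was 0.0339 and 0.00085 with carfilzomib, against 0.0308 and 0.0371 with vehicle, with an exact two-sided permutation p = 0.667. Macrophages are a main site of ferroportin. Their 17 markers summed to 66.4 and 60.4 CPM with carfilzomib, against 120 and 129 CPM with vehicle. Of the 13 tested 11 fell, 1 rose and 1 did not pass. Cd14 rose by 0.56 on the log2 scale, with 24.8 and 21.2 CPM with carfilzomib against 16.0 and 15.3 CPM with vehicle. Cd163 had 0 counts in both carfilzomib libraries, against 1 in each vehicle library, and Vsig4 had 0 in both carfilzomib libraries, against 0 and 1 in the vehicle libraries, and neither passed the filter on low counts. The part of macrophages in the values of Slc40a1 and Hmox1 was not tested.

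**Figure D3:**
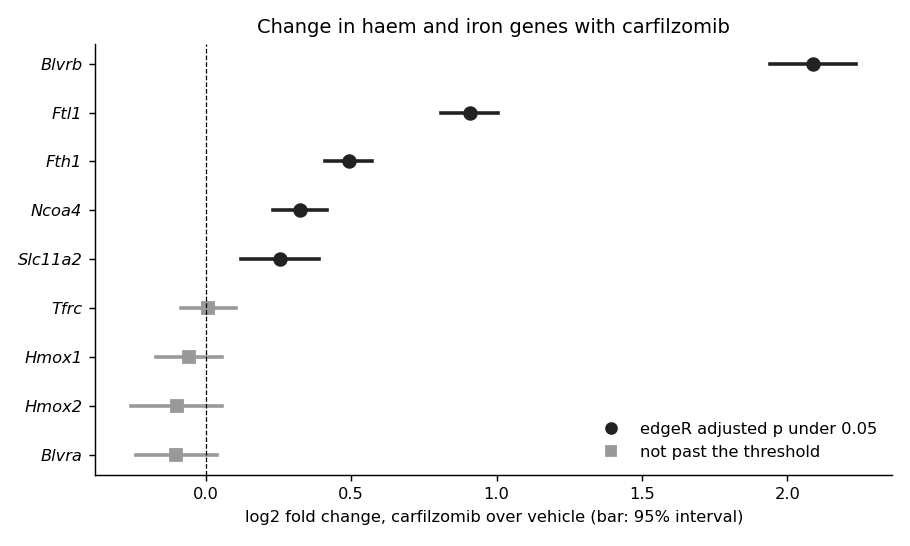
Log2 fold change of carfilzomib over vehicle (x axis) with its 95% interval for 9 of the 10 genes; circles passed an edgeR adjusted p of 0.05 and squares did not. Slc40a1 is not drawn because its interval runs from -6.93 to 4.98. Blvrb, at 2.09, stands apart from Ftl1, at 0.91, and the other genes.

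Scaled by length, the order of the genes was led by ferritin in both groups. With carfilzomib the mean FPKM was 5342 ± 166 for Ftl1, 3053 ± 24.6 for Fth1, 145 ± 3.10 for Blvrb and 82.6 ± 2.75 for Hmox1 (SD, n = 2). Below them came Ncoa4 at 51.2, Tfrc at 34.9 and Hmox2 at 34.0, Blvra at 26.9, Slc11a2 at 26.2 and Slc40a1 at 0.60 FPKM. Tfrc and Hmox2 did not differ beyond their spread. With vehicle, Hmox1 at 84.0 ± 5.33 FPKM stood next after both ferritin chains, and Blvrb at 33.4 ± 3.17 FPKM lay among Hmox2 and Tfrc, whose values overlapped its own (SD, n = 2).

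The other genes of haem and iron handling were described by 5 lists. Their counts are to be read against all tested genes, of which 30.6% rose and 30.1% fell. Among genes of haem synthesis and transport more rose than fell: of 23 tested, 12 rose, 3 fell and 8 missed the threshold. Their median log2 fold change was 0.14. Abcb6, a transporter of porphyrins, had 138 and 139 CPM with carfilzomib against 52.4 and 53.2 CPM with vehicle, a log2 fold change of 1.39. Pgrmc1, a haem-binding membrane protein with decimals in its counts, rose by 1.33, while Abcb10, a mitochondrial transporter needed for haem synthesis in red cell precursors, fell by 0.55. The enzymes of haem synthesis, chosen after their values were seen, were covered by 9 genes, of which 8 were tested; 6 rose and 2 did not pass. Alas1, the rate-limiting first enzyme outside red cells, rose by 0.72, Cpox by 0.61, and Fech, which inserts the iron, by 0.23. Alad had 42.2 CPM with carfilzomib and 41.6 CPM with vehicle and did not pass, and neither did Uros.

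Genes of iron uptake, storage, export and their control moved both ways. Of 26 tested, 8 rose, 8 fell and 10 missed the threshold, and the median was 0.03. Both shares are near those of all tested genes, 30.6% higher and 30.1% lower. Hamp, the peptide hormone hepcidin that removes ferroportin from the cell surface, had 70.7 and 71.7 CPM in the carfilzomib libraries, against 21.1 and 26.3 CPM in the vehicle libraries. Both carfilzomib libraries were far above both vehicle libraries, a rise of 1.59 ± 0.09 (SE) on the log2 scale with an edgeR adjusted p of 5.28e-09. Steap3, an endosomal ferrireductase, rose by 0.85, and Lcn2, a secreted protein that binds bacterial iron carriers, fell by 0.86. The iron-regulatory proteins, chosen after their values were seen, differed in direction. Ireb2, which encodes IRP2, rose by 0.34, Aco1, which encodes IRP1, fell by 0.15, and Fbxl5, the ubiquitin ligase subunit that removes IRP2 when iron is ample, rose by 0.53.

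Of 25 genes of iron-sulfur cluster assembly 12 rose, 2 fell and 11 missed the threshold, and the median was 0.15. Fdx1 and Hscb, a ferredoxin and a co-chaperone of the scaffold, rose by 0.83 and 0.48. With DESeq2 fewer genes were called in general, 44.7% of all tested genes in place of 60.7%. Of this list 9 genes were then called in place of 14. The count also dropped without carfilzomib replicate 2, as did that over all tested genes. By DESeq2 the iron uptake, storage, export and control list had 11 calls in place of 16. The haem synthesis and transport list had 11 in place of 15. The lists of Hmox1 regulators and NRF2 targets and of ferritin turnover partners kept 15 and 10 calls.

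Among the 16 genes that regulate Hmox1 or are NRF2 targets, 14 rose and 1 fell, 1 missed the threshold, and the median was 0.47. Osgin1, an oxidative stress-induced growth inhibitor, rose by 2.72. Glutathione reductase, Gsr, rose by 1.59. The cystine exchanger gene Slc7a11, whose counts carry decimals, fell by 1.22. Hmox1 itself stood at -0.06. Bach1, the haem-sensing repressor of Hmox1, chosen after its values were seen, rose by 0.65, and Nfe2l2, which encodes NRF2, by 0.24. Of 12 partners of ferritin turnover by autophagy 9 rose, 1 fell and 2 missed the threshold, and the median was 0.32. Gabarapl1 and Gabarapl2, proteins of the autophagosome membrane, rose by 1.73 and 1.18, and Map1lc3a fell by 0.67. Tax1bp1, a receptor that works with NCOA4 and was chosen after its values were seen, rose by 0.90.

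**Figure D4:**
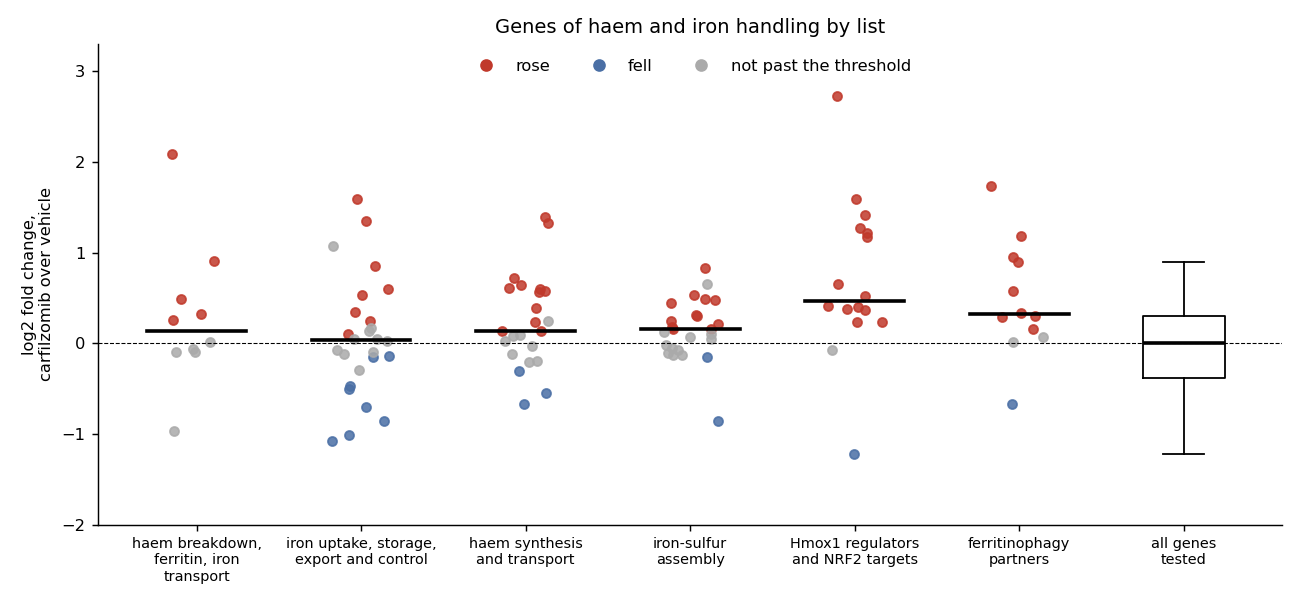
Log2 fold change of carfilzomib over vehicle (y axis) for the 10 genes and for the tested genes of 5 lists of haem and iron handling; points are genes coloured by call, thick lines are medians, and the box at the right spans the quartiles of all 14519 tested genes, with whiskers at the 5th and 95th percentile (-1.22 and 0.89). The median of Hmox1 regulators and NRF2 targets, 0.47, is the highest, and iron uptake, storage and export, at 0.03, lies near the median of all genes.

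Markers of red cells, which carry haem, were low and similar in the groups. The 12 genes summed to 44.1 and 42.6 CPM with carfilzomib, against 45.9 and 46.6 CPM with vehicle, and of 7 tested 1 rose, 1 fell and 5 missed the threshold. The count of 2 calls was 0 with DESeq2, and 1 with a replicate block and without carfilzomib replicate 1, carfilzomib replicate 2 or vehicle replicate 2. The table the authors deposited from DESeq2 (the authors' deposited table) lists 5 of the 10 haem and iron genes among its 6063 genes. Its log2 fold changes were 2.09 for Blvrb, 0.91 for Ftl1, 0.50 for Fth1, 0.33 for Ncoa4 and 0.26 for Slc11a2. The highest q-value in it is 0.0499, so genes above that are absent. It comes from the same data and is no independent check.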

How the data were processed

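RNA of 2 carfilzomib and 2 vehicle libraries was sequenced with a standard protocol of the provider, per the labels, which do not give the strand. Deposited by the authors were estimated counts, FPKM values, and a table of log2 fold changes with p-values and q-values from DESeq2, per the file headers. Per the submitters' processing notes, featureCounts 1.6.0, HISAT and Bowtie2 were used with the build Rnor_6.0, cutadapt 2.0 and FastQC 0.11.8, in an order that is not given. In each library 28.5% to 28.9% of the genes had an estimated count more than 1e-06 off a whole number. The control columns 1 and 2 were read as vehicle replicates 1 and 2, and 10 columns were not used.

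Estimated counts were rounded, filtered with filterByExpr (minimum count 10, minimum total 15) and tested with edgeR 4.0.16 in R 4.3.3 (TMM, robust quasi-likelihood F test, Benjamini-Hochberg adjustment). A standard error is the size of the log2 fold change over the root of F. Positive log2 fold changes are higher with carfilzomib. Replicates differed by more than sampling noise (chi-square per degree of freedom 2.99 for carfilzomib and 3.32 for vehicle). FPKM served for levels and ratios within a library. Scripts were tested on simulated data. Alternatives were DESeq2 1.42.0, limma-voom (limma 3.58.1), RLE factors, library size alone, other filters, a replicate block and leaving out each library.

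The 10 genes and 11 lists (169 of 170 entries matched) were chosen with earlier results of these data known. Named are the 10 genes and, from each pathway list, the 2 largest calls on its majority side and the largest call on the other side, at 10 CPM or more; further genes are marked as chosen after their values were seen. Some genes of these lists are not reported here by name. Promoter sequences are from RefSeq on GRCr8, a build other than that of the files, and no other coordinates are given.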

Additional observations from a re-analysis of the deposited data

How the results depend on the processing

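The calls of Blvrb, Ftl1, Fth1, Ncoa4 and Slc11a2 held under all 11 alternatives run, with log2 fold changes of 1.99 to 2.20 for Blvrb, 0.85 to 0.96 for Ftl1, 0.48 to 0.52 for Fth1, 0.31 to 0.36 for Ncoa4 and 0.18 to 0.34 for Slc11a2. The count of genes called was 8812, with 6489 by DESeq2 and 7360 to 7974 when 1 library was left out. Of the 10 haem and iron genes 5 were called in each of these, except for 6, Slc40a1 included, without carfilzomib replicate 1. Whether the replicate numbers pair the libraries is not in the labels. Same-numbered deviations correlated at -0.00011, which shows no shared deviation but cannot settle how the cells were prepared. With a replicate block 8229 genes and the same number of the 10, 5, were called. With 1 library left out, the near-zero changes turned sign for Hmox1, which ran from -0.12 without vehicle replicate 1 to 0.010 without vehicle replicate 2. They did so too for Tfrc, which ran from -0.023 without vehicle replicate 2, over -0.0018 without carfilzomib replicate 2, to 0.042 without vehicle replicate 1. The log2 difference in the ratio of Hmox1 to Hmox2 was 0.03, and ran from -0.08 without carfilzomib replicate 2 to 0.15 without carfilzomib replicate 1. For Slc40a1 limma-voom gave a log2 fold change of -2.63 with an adjusted p of 0.0548. At this depth and with 2 libraries a group, the 95% intervals of Hmox2 and Blvra reached down to log2 fold changes of -0.26 and -0.24, and that of Slc40a1 ran from -6.93 to 4.98.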
